A study of Mus musculus with 36 samples.

Results

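In the livers of YAP transgenic mice without Tet1, 131 of 18591 measured genes met a rule setting them apart from YAP transgenic and control livers. Of these, 59 were high and 72 low. The low genes include Rp1, which was at 0 in control livers as well. All 131 genes were chosen by the measured values themselves. The highest of the 3 group means of Tet1 KO YAP Tg, YAP Tg and control livers had to be at least 5 normalised reads, which held for 10490 genes. The Tet1 KO YAP Tg mean then had to be at least 2 times both other means for the high genes, or at most 0.5 times both for the low genes. The high genes made up 0.562% and the low genes 0.686% of the genes at that level. How far the Tet1 KO YAP Tg livers lie from the other 2 groups is therefore given below as a description, without a test.

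RNA was sequenced from whole liver of C57BL/6 mice in 4 groups of 3 libraries: Tet1 -/- YAP Tg mice given decitabine, Tet1 -/- YAP Tg mice, YAP Tg mice with Tet1 intact, and wild type controls. All 4 groups received doxycycline, at 50 mg/L in drinking water per the labels' protocol, given to mice 1 month old or to mothers nursing newborn pups. The decitabine group was also injected with 0.5 mg/kg decitabine each day for 10 days. The labels give neither the promoter that drives the transgene, nor the deleted part of Tet1, nor whether the 3 libraries of a group came from separate animals, so p-values measure only the spread between these libraries. No Tet1 -/- group without the transgene, and no group given decitabine without the Tet1 deletion, was analysed here. In whole liver, fewer cells of a type and less RNA per cell cannot be told apart.

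YAP is a transcriptional co-activator held back by the Hippo pathway, and it works through TEAD factors. TET1 oxidises 5-methylcytosine, a step towards removing DNA methylation, while decitabine, once built into DNA, ties up the methyltransferases so that methylation is lost as cells divide. The liver secretes most plasma proteins, among them protease inhibitors of the serpin A cluster and the acute phase proteins. It also makes fat from sugar, and in mice many of its P450 enzymes, conjugating enzymes and pheromone carriers are expressed at different levels in males and females.

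The 9 libraries used by the rule held 19082417 to 25067861 reads and the decitabine libraries 20671309 to 31696748 recovered reads. Normalised reads are the authors' reads per gene scaled by a constant for each library, and decitabine values, deposited as TPM, were brought to that scale from recovered reads. The 3 Tet1 KO YAP Tg libraries differed from each other beyond read sampling by a coefficient of variation of only 0.0230 to 0.0309 and the YAP Tg libraries by 0.00721 to 0.0418, against 0.182 to 0.311 among the decitabine libraries. Control libraries 1 and 3 differed by 0.0242, and control library 2 stood apart from them by 0.128 to 0.135. Tet1 was deposited at 0.241, 0.308 and 0.601 TPM in decitabine-treated livers. It was at 1.25, 0.954 and 0.586 normalised reads in Tet1 KO YAP Tg, at 9.90, 8.59 and 8.97 in YAP Tg and at 0.935, 0.756 and 0.356 in control livers. The knockout libraries were thus below YAP Tg libraries but not below control libraries. Yap1 counted 51.1 ± 2.29 in Tet1 KO YAP Tg, 29.9 ± 2.24 in YAP Tg and 54.8 ± 6.70 in control livers (SD, n = 3 each), so these reads do not show the transgene. The hepatocyte markers summed to 76808 to 78426 in Tet1 KO YAP Tg, 89860 to 91265 in YAP Tg and 70605 to 87313 in control livers, with none of the 13 measured at 0.

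**Figure D1:**
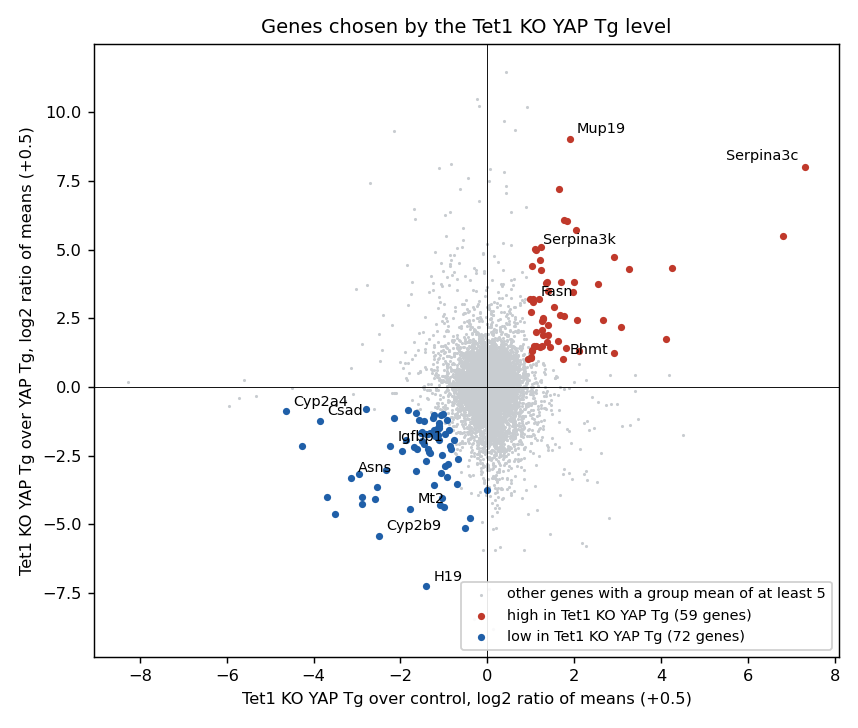
Each point is a gene with a group mean of at least 5 normalised reads; the x axis is the log2 ratio of the Tet1 KO YAP Tg mean to the control mean, and the y axis the log2 ratio to the YAP Tg mean, both after adding 0.5. Red marks the 59 high and blue the 72 low genes, grey the others; Serpina3c and Serpina5 lie farthest to the right, and Rp1, at 0 in control livers, sits on the vertical line.

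In the high group all 3 Tet1 KO YAP Tg libraries lay above all 6 other libraries for each of the 59 genes. This was so for 13.4% of all genes at the level of the rule, and a 2-fold rule on the same values all but fixes it. The median ratio to the nearer of the other 2 means was 1.36 on the log2 scale, 10 genes exceeded 2 on that scale, and their Tet1 KO YAP Tg means ran between 5.15 and 24811 normalised reads. Just inside the threshold were Ttc38, Hspa4l and Bhmt at 2.00, 2.02 and 2.03 times the nearer mean, and just outside were P2ry2, C9 and Chrna4 at 2.00, 1.98 and 1.96 times (P2ry2 at 1.99946). Of the 59, 14 lay within 1 Mb of another high gene, a count that was not made for all genes. YAP Tg was the lower of the other 2 groups for 51 of the 59 genes and the higher for 8.

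A row of serpin A genes on chromosome 12 (mm10) held the most of these neighbours. Serpina12, Serpina5, Serpina3c, Serpina3g, Serpina3k and Serpina3m, which lie in that order between 104028769 and 104394257, were all high, 6 of the 19 serpin A genes at the level of the rule. The Serpina3 genes are a mouse expansion of the gene for alpha-1-antichymotrypsin, Serpina5 encodes protein C inhibitor and Serpina12 encodes vaspin. The Serpina3 genes are close copies, so that reads may have been split among them and their single values are uncertain to that extent.

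Serpina3c (chromosome 12, 104146907 to 104153872, minus strand) had the largest ratio of all. It counted 472, 364 and 315 normalised reads in decitabine-treated Tet1 KO YAP Tg livers, 153, 138 and 154 in Tet1 KO YAP Tg, 0.072, 0.103 and 0.0729 in YAP Tg, and 0.468, 0.534 and 0.297 in control livers. The gene was thus near silence in every YAP Tg and control library, which together held 7 and 25 reads of it, and abundant in all 6 Tet1 -/- libraries. The decitabine libraries lay above the untreated ones without overlap, by 1.35 ± 0.15 in log2 units (± SE, with adjusted p = 4.4e-06 from limma with Benjamini-Hochberg adjustment over all tested genes, as for every adjusted p below). As deposited, they read 589, 539 and 447 TPM. The untreated livers in every such comparison had also chosen the members, which favours lower values of high genes and higher values of low genes with decitabine, so the adjusted p-values are given as descriptions.

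Serpina5 (chromosome 12, 104101113 to 104106137, plus strand), 40.8 kb away from Serpina3c, counted 18.9, 9.91 and 10.7 with decitabine, 75.5, 72.7 and 68.6 in Tet1 KO YAP Tg, 1.55, 0.928 and 0.911 in YAP Tg and 0.117, 0.089 and 0.237 in control livers. Here decitabine-treated livers were lower than untreated Tet1 KO YAP Tg livers, with a log2 change of −2.47 ± 0.22 (adjusted p = 6.8e-07), the opposite direction to its neighbour. They were still higher than YAP Tg livers by 3.03 ± 0.22 and than control livers by 4.35 ± 0.22 on that scale. Because TET1 and decitabine both act on methylation at CG dinucleotides, the promoters of these neighbours are given with each CG dinucleotide in capitals, as 250 bases before to 50 bases after the RefSeq start (GRCm38.p6). The Serpina3c window (chr12:104153823-104154122, minus strand) held 1 CG and that of Serpina5 (chr12:104100863-104101162, plus strand) held 6, against a median of 7 over 32851 mouse promoters.
Serpina3c: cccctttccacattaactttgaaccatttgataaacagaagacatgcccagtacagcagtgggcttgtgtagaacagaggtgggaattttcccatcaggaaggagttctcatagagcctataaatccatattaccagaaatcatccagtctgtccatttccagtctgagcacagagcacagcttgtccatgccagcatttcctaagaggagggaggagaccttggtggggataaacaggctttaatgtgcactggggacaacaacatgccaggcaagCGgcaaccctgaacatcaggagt
Serpina5: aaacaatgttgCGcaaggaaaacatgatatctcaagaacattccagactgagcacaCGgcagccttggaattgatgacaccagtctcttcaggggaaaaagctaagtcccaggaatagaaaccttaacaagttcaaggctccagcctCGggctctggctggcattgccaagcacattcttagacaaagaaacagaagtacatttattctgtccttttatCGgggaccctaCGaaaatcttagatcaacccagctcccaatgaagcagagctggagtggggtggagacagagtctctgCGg

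The most abundant member, Serpina3k, counted 15724, 6132 and 4900 with decitabine, 25977, 24237 and 24220 in Tet1 KO YAP Tg, 767, 787 and 784 in YAP Tg and 9699, 13571 and 11025 in control livers. In YAP Tg livers it was lower than in control livers, by −3.86 on the log2 scale. Serpina3m, its neighbour at 41.4 kb, averaged 800.5 ± 222 with decitabine, 1321 ± 10.4 in Tet1 KO YAP Tg, 245 ± 3.59 in YAP Tg and 207 ± 26 in control livers (SD, n = 3 each, as for all means below), and there YAP Tg was the higher of the 2 groups with Tet1. Serpina12 counted 58.4, 2.5 and 1.37 with decitabine, 163, 166 and 166 in Tet1 KO YAP Tg, 2.59, 1.48 and 1.9 in YAP Tg and 41, 50.9 and 45.5 in control livers. One decitabine library was thus above the control libraries and the other two were near the YAP Tg level. Serpina3g, the least abundant of the row, averaged 3.28 ± 0.573 with decitabine, 26.4 ± 0.792 in Tet1 KO YAP Tg, 6.67 ± 0.400 in YAP Tg and 9.66 ± 3.7 in control livers.

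**Figure D2:**
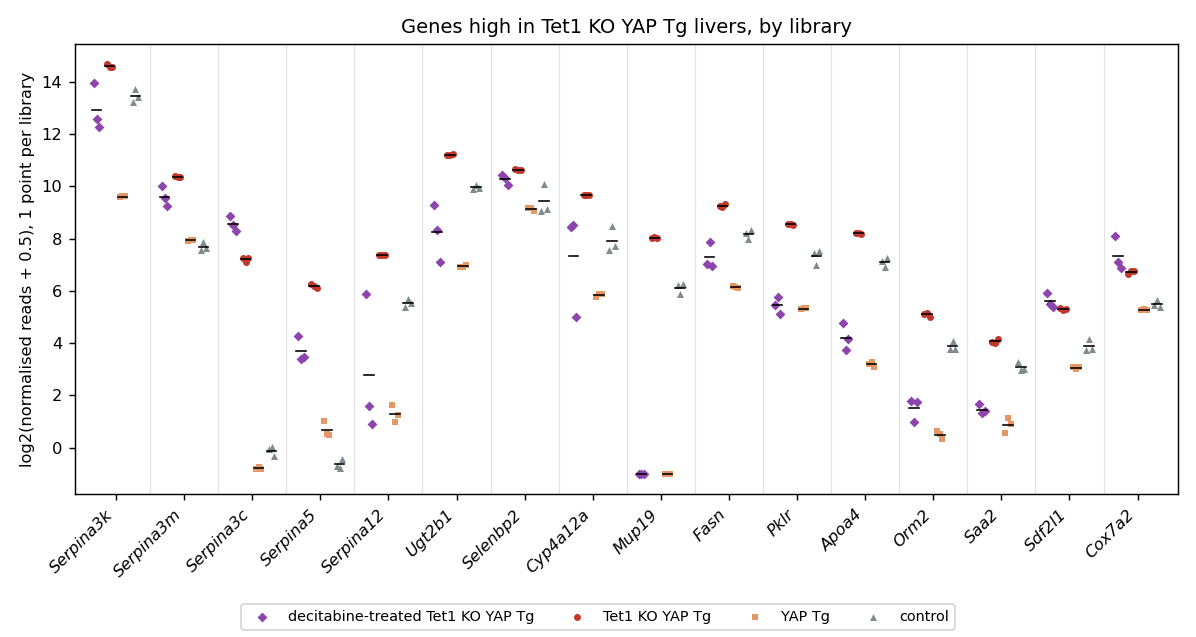
Each point is 1 library, on a scale of log2(normalised reads + 0.5), for 16 of the 59 high genes; black bars are group means over 3 libraries, and decitabine values come from recovered reads. Tet1 KO YAP Tg libraries (red circles) lie above YAP Tg (orange squares) and control libraries (grey triangles) for every gene shown, and decitabine libraries (purple diamonds) lie above the red ones for Serpina3c, Sdf2l1 and Cox7a2.

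Genes known to be expressed more in male than in female mouse liver formed another group. Of 35 such genes at the level of the rule, 6 were high and 0 low: Cyp4a12a, Cyp4a12b, Ugt2b1, Selenbp2, Serpina12 and Moxd1. In YAP Tg against control livers, 32 of 37 tested genes of the list were lower and 1 was higher, where 34.5% of all tested genes were lower and 36.1% higher. Cyp4a12a, a fatty acid hydroxylase, counted 348, 370.2 and 31.2 with decitabine, 809.8, 809.7 and 822 in Tet1 KO YAP Tg, 54, 58.2 and 59.3 in YAP Tg and 191, 354 and 211 in control livers. Control library 2 was the highest control here, and the third decitabine library fell below all YAP Tg libraries. Ugt2b1, which attaches glucuronic acid to steroids and drugs, averaged 363 ± 249 with decitabine, 2355 ± 33.1 in Tet1 KO YAP Tg, 122 ± 4.6 in YAP Tg and 1005 ± 63 in control livers. Moxd1, a monooxygenase-like protein, counted 0, 0 and 0 with decitabine, 8.58, 10.2 and 10.3 in Tet1 KO YAP Tg, 0, 0.0344 and 0 in YAP Tg and 0.0584, 0.0445 and 0 in control livers, which is next to nothing outside the untreated Tet1 KO YAP Tg livers.

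The pheromone carriers of the major urinary protein family, also male-biased, contributed Mup19 and Mup9, 2 of 14 at the level of the rule. Mup19 counted 0, 0 and 0 with decitabine, 257, 269 and 263 in Tet1 KO YAP Tg, 0, 0 and 0 in YAP Tg and 74.7, 58.5 and 76.9 in control livers, so that no YAP Tg or decitabine library held a read of it. Against the floor of 3 reads over the 3 YAP Tg libraries, which is 0.0356 normalised reads, the Tet1 KO YAP Tg level was at least 7381-fold higher. All 18 tested Mup genes were lower in YAP Tg than in control livers (34.5% of all tested genes were) and lower with decitabine than in untreated Tet1 KO YAP Tg livers (27.8% of all tested genes were). Reads of these close copies are hard to assign to 1 gene.

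The X and Y transcripts do not form a clean male and female split. The Y-linked Ddx3y was read in all 12 libraries, at 190 to 195 normalised reads in Tet1 KO YAP Tg, 147 to 161 in YAP Tg and 211 to 221 in control livers. Xist, made from the inactive X of females, counted 0.0894, 12.2 and 3.73 in Tet1 KO YAP Tg, 5.83, 0.137 and 0.182 in YAP Tg and 12.9, 15.3 and 0.119 in control livers, so it varied within each of these groups. In the decitabine libraries it was deposited at 0.0295, 0.0303 and 0.0222 TPM, near 0 in all 3. Its part in the sex-biased values was not tested. From the list of female-biased genes, Ntrk2 and Cyp26a1 were among the high genes and 6 others among the low ones, of 21 at the level of the rule. Cyp26a1, which breaks down retinoic acid, counted 46.8, 65.1 and 11.3 with decitabine, 24.5, 27 and 26.2 in Tet1 KO YAP Tg, 9.43, 11 and 10.2 in YAP Tg and 5.67, 5.87 and 5.34 in control livers. Decitabine libraries spread widely around the Tet1 KO YAP Tg level of this gene (log2 0.33 ± 0.44, adjusted p = 0.53).

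Of 26 genes of fatty acid and triglyceride synthesis at the level of the rule, 4 were high, Fasn, Pklr and Pnpla3 among them, and 0 low. The Tet1 KO YAP Tg mean was the highest of the 3 for 18 of the 26, as for 27.6% of all genes at that level. It was the lowest for 0 of them. In the rest of the list, control or YAP Tg livers had the highest mean, so the list was not raised as a whole. Fasn, the fatty acid synthase, counted 130.1, 233 and 125 with decitabine, 604, 587 and 635 in Tet1 KO YAP Tg, 73, 70.6 and 68 in YAP Tg and 295, 255 and 324 in control livers. Pklr, the liver pyruvate kinase, averaged 44 ± 9.93 with decitabine, 373 ± 1.44 in Tet1 KO YAP Tg, 39.6 ± 0.447 in YAP Tg and 163 ± 30.4 in control livers. Both genes thus followed one order, with untreated Tet1 KO YAP Tg first, control next and YAP Tg last. Both were lower with decitabine than without, with log2 changes of −1.96 ± 0.19 (adjusted p = 1.2e-06) for Fasn and −3.09 ± 0.16 (adjusted p = 3.0e-09) for Pklr. Pnpla3, a lipid droplet protein, counted 2.79, 3.23 and 3.62 with decitabine, 8.14, 8.77 and 6.82 in Tet1 KO YAP Tg, 3.28, 2.44 and 2.3 in YAP Tg and 2.69, 1.38 and 1.66 in control livers. There YAP Tg and control libraries overlapped, and decitabine libraries lay below the untreated Tet1 KO YAP Tg libraries (log2 −1.18 ± 0.20, adjusted p = 0.00021). Apoa4, an apolipoprotein of triglyceride-rich particles that gut also makes strongly, averaged 18.9 ± 7.13 with decitabine, 296 ± 3.13 in Tet1 KO YAP Tg, 8.63 ± 0.63 in YAP Tg and 138 ± 17.1 in control livers.

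Genes on the acute phase response list were divided between the 2 directions. Of 28 at the level of the rule, 6 were high, namely Serpina3g, Serpina3k, Serpina3m, Orm2, Orm3 and Saa2, and 4 were low, namely Mt1, Mt2, Apcs and Il1rn. Orm3, an alpha-1-acid glycoprotein gene 2.94 kb from Orm2 on chromosome 4, counted 0.322, 0.0814 and 0.416 with decitabine, 8.72, 9.17 and 10.3 in Tet1 KO YAP Tg, 0, 0.0344 and 0 in YAP Tg and 0.292, 0.89 and 0.415 in control livers. Saa2, which encodes a serum amyloid A protein, averaged 2.27 ± 0.361 with decitabine, 16.4 ± 0.956 in Tet1 KO YAP Tg, 1.36 ± 0.374 in YAP Tg and 8.02 ± 1.06 in control livers. Neither Saa2 nor either Orm gene was as high with decitabine as in any untreated Tet1 KO YAP Tg library. C4a, a copy of complement C4, averaged 0.375 ± 0.176 with decitabine, 35.6 ± 3.14 in Tet1 KO YAP Tg, 0.191 ± 0.0596 in YAP Tg and 8.29 ± 2.15 in control livers. Its reads may be shared with those of C4b. The decitabine reads of C4a, recovered at a gene length of 2680 bases, may also be too small by a whole factor.

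Other high genes were Bhmt, Sdf2l1, Creld2 and Cox7a2. Bhmt, which remakes methionine from homocysteine with betaine, counted 3279, 2346 and 2668 with decitabine, 14789, 14034 and 14316 in Tet1 KO YAP Tg, 7119, 7112 and 7053 in YAP Tg and 3927, 4957 and 4073 in control livers. It was one of the 8 high genes with YAP Tg above control, by 0.72 on the log2 scale, and its decitabine libraries fell below those of all other groups. Sdf2l1 and Creld2, chaperone-type proteins of the endoplasmic reticulum, were 2 of 26 genes of the stress list at the level of the rule. Sdf2l1 counted 59.3, 45.2 and 41.4 with decitabine, 40.1, 38.1 and 39.5 in Tet1 KO YAP Tg, 8.1, 7.59 and 7.95 in YAP Tg and 12.8, 17.4 and 13.4 in control livers, and the decitabine difference did not pass the test (log2 0.29 ± 0.14, adjusted p = 0.092). Cox7a2, a subunit of cytochrome c oxidase, was the only high gene of 28 for oxidative phosphorylation. It counted 271, 137 and 116 with decitabine, 99.7, 108 and 109 in Tet1 KO YAP Tg, 38.5, 39.4 and 37.6 in YAP Tg and 43.6, 49.7 and 41.4 in control livers. Dct, better known from pigment cells, counted 0.465, 0.0543 and 0 with decitabine, 12.8, 13.4 and 12.6 in Tet1 KO YAP Tg, 0, 0 and 0 in YAP Tg and 1.05, 1.51 and 1.31 in control livers. Its 3 untreated Tet1 KO YAP Tg libraries stood alone among the 12.

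The remaining high genes with large ratios had no list in common. Acot11, an acyl-CoA thioesterase, averaged 2.64 ± 0.964 with decitabine, 19.8 ± 1.35 in Tet1 KO YAP Tg, 1.01 ± 0.157 in YAP Tg and 2.98 ± 0.608 in control livers, with decitabine libraries overlapping the control libraries. Trhde, an enzyme that degrades thyrotropin-releasing hormone, averaged 0.525 ± 0.703 with decitabine, 6.79 ± 0.542 in Tet1 KO YAP Tg, 0.012 ± 0.0208 in YAP Tg and 1.34 ± 0.485 in control livers. Lect1, which encodes chondromodulin, averaged 0.601 ± 0.224 with decitabine, 9.45 ± 0.485 in Tet1 KO YAP Tg, 0.415 ± 0.0799 in YAP Tg and 2.04 ± 0.369 in control livers. Both were thus low in every group but the untreated Tet1 KO YAP Tg livers. Tsku, a secreted protein of liver, counted 41.5, 71.2 and 20.3 with decitabine, 60.5, 55.6 and 58.1 in Tet1 KO YAP Tg, 9.76, 8.87 and 9.33 in YAP Tg and 16.4, 14.7 and 18.8 in control livers. Its decitabine libraries fell on both sides of the untreated Tet1 KO YAP Tg libraries (adjusted p = 0.13). Gbp11, a guanylate-binding protein, counted 25.8, 10.7 and 6.65 with decitabine, 25.7, 26.5 and 27 in Tet1 KO YAP Tg, 3.64, 5.05 and 4.67 in YAP Tg and 4.44, 8.67 and 4.63 in control livers, with 1 decitabine library at the untreated Tet1 KO YAP Tg level and the other two below it. Prodh, which starts the breakdown of proline, averaged 44.5 ± 17.2 with decitabine, 251 ± 9.04 in Tet1 KO YAP Tg, 17.9 ± 1.15 in YAP Tg and 97.8 ± 6.01 in control livers.

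Among the 72 low genes, 71 had all 3 Tet1 KO YAP Tg libraries below all 6 others, as had 9.04% of all genes at that level, which the rule again all but fixes. The exception was Rp1, at 0 in Tet1 KO YAP Tg and control libraries alike and at 6.19, 5.77 and 6.71 in YAP Tg, which met the rule only because 0 is not above 0. Some other low genes rested on few reads outside YAP Tg. Hao2 held 3 and Mir675 6 reads over the Tet1 KO YAP Tg libraries, against 16 each over the control libraries. The median ratio to the nearer mean was −1.21 on the log2 scale, and Tet1 KO YAP Tg means ran up to 66.0 normalised reads. Their median there was 2.41, beside 35.6 for the high genes. Just inside the threshold were Eda2r, Soat2 and Cytip at 0.49982, 0.496 and 0.494 of the nearer mean, and just outside Agtr1a, Bcl6b and Gcnt4 at 0.504, 0.505 and 0.510. YAP Tg was above control for 58 of the 72 and below for 14, the reverse of the high genes, and 12 of the 72 lay within 1 Mb of another low gene. These 12 include H19 with Mir675 and Lgals4 with LGALS6, whose spans overlap, so that each pair may share reads. This count was not made for all genes either.

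The metallothioneins Mt1 and Mt2, small metal-binding proteins whose genes lie 5.52 kb apart on chromosome 8, were both low. Mt1 (94179089 to 94180327, plus strand) counted 31.8, 27.7 and 45.4 with decitabine, 7.38, 7.4 and 9.06 in Tet1 KO YAP Tg, 137, 136 and 133 in YAP Tg and 55.5, 74.2 and 55.9 in control livers. Mt2 (94172618 to 94173567, plus strand) counted 21.2, 17.5 and 20.3 with decitabine, 2.77, 3.13 and 3.25 in Tet1 KO YAP Tg, 74.4, 75.1 and 77.5 in YAP Tg and 7.36, 19.9 and 7.6 in control livers. In both, the 3 Tet1 KO YAP Tg libraries were the lowest of the 12, and the decitabine libraries lay above them and below YAP Tg. The differences with decitabine were 2.04 ± 0.17 (adjusted p = 2.8e-07) and 2.50 ± 0.27 (adjusted p = 4.3e-06) on the log2 scale. Their promoters are given because these neighbours moved together and metallothionein promoters are the textbook carriers of metal response elements. Capitals mark the core letters TGCACNC or TGCGCNC on either strand, which occurred 3 times in the Mt1 window (chr8:94178839-94179138) and 4 times in the Mt2 window (chr8:94172368-94172667), both plus strand, with no overlap. The letters occur at least once in 25.7% of all promoters of that length, in 12 of the 49 low genes with a promoter in the RefSeq table and in 16 of 48 high genes.
Mt1: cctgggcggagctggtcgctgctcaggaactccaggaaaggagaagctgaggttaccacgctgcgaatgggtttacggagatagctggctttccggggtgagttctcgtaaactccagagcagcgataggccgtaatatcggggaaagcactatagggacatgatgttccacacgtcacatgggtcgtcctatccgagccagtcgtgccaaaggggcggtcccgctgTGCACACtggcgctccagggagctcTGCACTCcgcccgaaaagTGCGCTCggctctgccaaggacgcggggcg
Mt2: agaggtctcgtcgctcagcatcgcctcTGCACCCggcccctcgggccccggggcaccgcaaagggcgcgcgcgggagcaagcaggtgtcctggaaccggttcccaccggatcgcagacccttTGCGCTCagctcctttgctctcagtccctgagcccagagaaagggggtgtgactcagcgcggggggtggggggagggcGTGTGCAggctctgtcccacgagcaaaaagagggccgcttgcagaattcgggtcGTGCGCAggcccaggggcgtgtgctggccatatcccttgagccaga

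Asns, which makes asparagine, and Fgf21, a liver hormone of fasting, are both known targets of the amino acid response and were both low. Asns counted 16.3, 13.1 and 12.8 with decitabine, 0.581, 0.500 and 0.267 in Tet1 KO YAP Tg, 9.29, 8.76 and 8.38 in YAP Tg and 8.18, 8.05 and 7.42 in control livers. The YAP Tg and control livers differed by 0.15 on the log2 scale. Decitabine livers exceeded untreated Tet1 KO YAP Tg livers by 3.95 ± 0.15 (adjusted p = 1.9e-10), and lay above every YAP Tg and control library. Fgf21 counted 19.06, 4.21 and 2.7 with decitabine, 0.268, 0.409 and 0.693 in Tet1 KO YAP Tg, 5.22, 6.29 and 5.65 in YAP Tg and 2.34, 1.42 and 2.43 in control livers. All 3 decitabine libraries lay above the untreated ones (log2 2.82 ± 0.49, adjusted p = 0.00024), the first of them far above the others. Of the other genes in the same list of 26, Sdf2l1 and Creld2 were high. The composite C/EBP-ATF letters TGATGNAA, in capitals and sought on both strands, stood once in the Asns window (chr6:7693160-7693459, minus strand) and once in the Fgf21 window (chr7:45615441-45615740, minus strand), and in 3.97% of all promoters. Among the low genes they were found in 3 of 49 windows, the third being that of Vldlr, and among the high genes in 1 of 48.
Asns: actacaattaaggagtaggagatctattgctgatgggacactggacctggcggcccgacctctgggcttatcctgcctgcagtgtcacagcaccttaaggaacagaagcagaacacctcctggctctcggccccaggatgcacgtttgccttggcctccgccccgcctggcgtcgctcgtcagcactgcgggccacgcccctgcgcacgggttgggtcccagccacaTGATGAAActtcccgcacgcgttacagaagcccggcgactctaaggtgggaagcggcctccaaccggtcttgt
Fgf21: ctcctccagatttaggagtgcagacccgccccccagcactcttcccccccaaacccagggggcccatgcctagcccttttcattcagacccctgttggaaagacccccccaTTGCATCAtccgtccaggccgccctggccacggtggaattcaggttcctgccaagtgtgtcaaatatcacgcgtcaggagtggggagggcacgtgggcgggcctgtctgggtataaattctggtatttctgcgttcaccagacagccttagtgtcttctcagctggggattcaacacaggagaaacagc

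Female-biased liver genes made up 6 of the low genes: Nipal1, Acot3, Cyp2b9, Abcd2, Cyp2a4 and Hao2. Cyp2b9, a P450 enzyme, counted 3.11, 0.977 and 2.62 with decitabine, 0.0447, 0 and 0 in Tet1 KO YAP Tg, 22.1, 22 and 20.3 in YAP Tg and 1.58, 3.38 and 2.2 in control livers. Hao2, a peroxisomal hydroxyacid oxidase, counted 26.1, 3.31 and 4.7 with decitabine, 0.0894, 0 and 0.0533 in Tet1 KO YAP Tg, 18.5, 18.8 and 18.2 in YAP Tg and 0.234, 0.311 and 0.297 in control livers. Cyp2a4 counted 0.107, 0 and 0.0831 with decitabine, 0.179, 0.0454 and 0.16 in Tet1 KO YAP Tg, 0.792, 0.653 and 0.547 in YAP Tg and 18, 10.8 and 16.6 in control livers, high in control livers alone. Decitabine livers were not distinguished from untreated Tet1 KO YAP Tg livers for Cyp2a4 (adjusted p = 0.51). Nipal1, a magnesium transporter gene, averaged 41.4 ± 13.2 with decitabine, 2.23 ± 0.515 in Tet1 KO YAP Tg, 66.3 ± 4.36 in YAP Tg and 30.6 ± 6.13 in control livers.

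From the list of fatty acid oxidation and ketogenesis, Acot3, Acot4, Cyp4a31 and Vnn1 were also low, 4 of its 29 genes, with 0 high. Vnn1, a pantetheinase, counted 35, 30.3 and 24 with decitabine, 8.003, 8.49 and 8.53 in Tet1 KO YAP Tg, 144, 146 and 152 in YAP Tg and 53.9, 48.1 and 56.3 in control livers. Acot3 and Acot4, acyl-CoA thioesterases, lie 7.43 kb apart on chromosome 12. Acot4 averaged 16 ± 0.929 with decitabine, 4.58 ± 0.403 in Tet1 KO YAP Tg, 13 ± 1.09 in YAP Tg and 10.6 ± 1.7 in control livers. Acot3 counted 0.393, 0.787 and 2.16 with decitabine, 0.224, 0.136 and 0.213 in Tet1 KO YAP Tg, 12.9, 12.4 and 12.4 in YAP Tg and 6.25, 1.38 and 6.29 in control livers, with control library 2 below the other two.

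**Figure D3:**
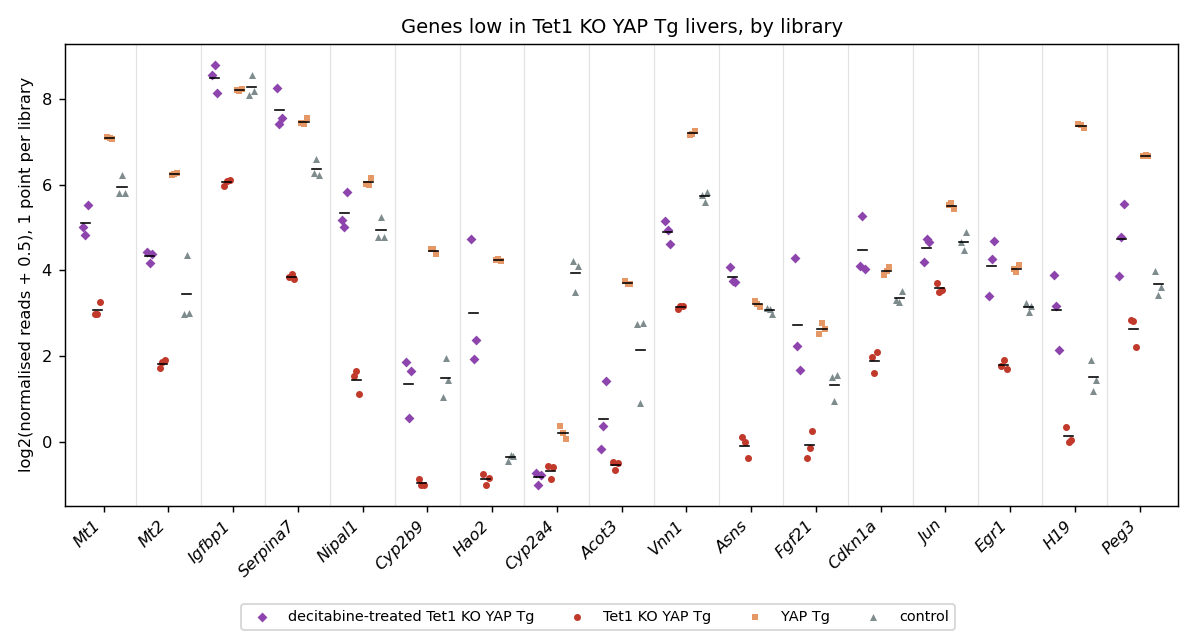
Each point is 1 library, on a scale of log2(normalised reads + 0.5), for 17 of the 72 low genes; black bars are group means over 3 libraries. Tet1 KO YAP Tg libraries (red circles) lie below YAP Tg (orange squares) and control libraries (grey triangles) for each gene shown, and decitabine libraries (purple diamonds) lie above the red ones for each except Cyp2a4.

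Hormone carriers and signalling genes completed the low group. Igfbp1, which binds insulin-like growth factors and is held down by insulin, had the highest Tet1 KO YAP Tg level of the low genes, at 375, 445 and 283 with decitabine, 61.9, 67.4 and 68.7 in Tet1 KO YAP Tg, 295, 292 and 301 in YAP Tg and 274, 376 and 291 in control livers. Serpina7, the thyroxine-binding globulin gene on the X chromosome, is the one serpin A gene that was low, at 308, 170.1 and 189 with decitabine, 13.8, 14.5 and 13.5 in Tet1 KO YAP Tg, 174, 172 and 188 in YAP Tg and 77.5, 97.5 and 74.5 in control livers. For both genes all 3 decitabine libraries lay within or above the range of the YAP Tg and control libraries. Cdkn1a, the p21 inhibitor of the cell cycle, counted 16.8, 38.2 and 15.9 with decitabine, 3.44, 2.54 and 3.79 in Tet1 KO YAP Tg, 14.3, 15.4 and 16.3 in YAP Tg and 9.35, 9.16 and 11 in control livers. From the immediate early list Jun, Egr1 and Maff were low, 3 of 22 with 0 high. Egr1 averaged 18 ± 7.58 with decitabine, 2.97 ± 0.28 in Tet1 KO YAP Tg, 16 ± 0.915 in YAP Tg and 8.37 ± 0.654 in control livers. Jun, part of the AP-1 factor, averaged 22.9 ± 4.5 with decitabine, 11.5 ± 0.958 in Tet1 KO YAP Tg, 45.2 ± 2.11 in YAP Tg and 25.2 ± 3.77 in control livers, lowest in all 3 untreated Tet1 KO YAP Tg libraries. Sgk1, a kinase induced by serum and glucocorticoids, averaged 169.6 ± 71 with decitabine, 21.7 ± 1.71 in Tet1 KO YAP Tg, 113 ± 2.8 in YAP Tg and 55.7 ± 2.09 in control livers. In YAP Tg against control livers 21 of 25 tested genes of the immediate early list were higher and 3 lower, where 36.1% of all tested genes were higher and 34.5% lower.

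Of 17 imprinted genes at the level of the rule, H19, Peg3 and Impact were low and 0 were high. H19, an imprinted long RNA (chromosome 7, 142575532 to 142578146, minus strand), counted 14.3, 8.55 and 3.91 with decitabine, 0.76, 0.500 and 0.533 in Tet1 KO YAP Tg, 169.6, 168 and 161 in YAP Tg and 3.27, 1.78 and 2.2 in control livers. Mir675 overlaps H19 and may share its reads, so it is not separate evidence. Peg3 averaged 29.2 ± 16.4 with decitabine, 5.8 ± 1.47 in Tet1 KO YAP Tg, 102 ± 0.957 in YAP Tg and 12.51 ± 2.65 in control livers. Both genes were higher in YAP Tg than in control livers, by 5.87 and 3.00 on the log2 scale.

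A last set of low genes serves transport, lipid handling and signalling. Abcc3, an exporter of conjugated bile acids, counted 56, 121 and 93 with decitabine, 56.2, 55.2 and 58.4 in Tet1 KO YAP Tg, 183, 182 and 183 in YAP Tg and 160.3, 146 and 189 in control livers. Cyp39a1, an oxysterol hydroxylase, averaged 81.3 ± 20.8 with decitabine, 23.7 ± 1.58 in Tet1 KO YAP Tg, 66.9 ± 0.968 in YAP Tg and 52.2 ± 11 in control livers. Decitabine livers were higher than untreated Tet1 KO YAP Tg livers for both, though 1 of the decitabine libraries of Abcc3 stayed within the untreated range. Vldlr, a receptor that takes up triglyceride-rich lipoproteins, averaged 3.25 ± 1.37 with decitabine, 1.37 ± 0.358 in Tet1 KO YAP Tg, 36.6 ± 1.04 in YAP Tg and 3.47 ± 0.408 in control livers. Pparg, a fat-storage transcription factor, averaged 8.19 ± 1.75 with decitabine, 5.13 ± 0.493 in Tet1 KO YAP Tg, 17.9 ± 0.957 in YAP Tg and 10.5 ± 2.04 in control livers. Both were low against YAP Tg above all. Csad, which makes taurine precursors, counted 17.8, 14.6 and 31.5 with decitabine, 15.1, 15.8 and 16.6 in Tet1 KO YAP Tg, 35.2, 37.8 and 40.2 in YAP Tg and 281, 134 and 292 in control livers. Ctse, the protease cathepsin E, counted 0.0715, 0.0814 and 0.125 with decitabine, 0.179, 0.0908 and 0.0533 in Tet1 KO YAP Tg, 1.91, 2.2 and 2.37 in YAP Tg and 6.84, 18 and 8.55 in control livers. These were high in control livers, and neither passed the test between decitabine-treated and untreated Tet1 KO YAP Tg livers (adjusted p = 0.32 for Csad and adjusted p = 0.92 for Ctse). Loxl4, a lysyl oxidase of matrix, counted 9.3, 2.61 and 23.9 with decitabine, 3.00, 2.27 and 1.97 in Tet1 KO YAP Tg, 10.6, 10.9 and 10.3 in YAP Tg and 8.01, 12.3 and 9.97 in control livers, with 1 decitabine library within the range of the untreated ones. Wsb1, a ubiquitin ligase adaptor, averaged 35.8 ± 1.78 with decitabine, 36.5 ± 1.53 in Tet1 KO YAP Tg, 75.2 ± 2.39 in YAP Tg and 76.6 ± 6.53 in control livers, with no decitabine difference that passed the test (adjusted p = 0.79).

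With 0.562% and 0.686% of genes being members, most lists of this size would hold none. Those without a gene of either direction were cholesterol synthesis (24 genes at the level of the rule), the circadian clock (17), mitosis (24), DNA replication (21), YAP/TEAD targets (24), DNA methylation and demethylation (18), methylation-controlled germline genes (only 1), interferon response (33), antigen presentation (24), extracellular matrix (27), chemokines (8) and cytosolic ribosomal proteins (28). None of the marker lists of 12 cell types held a member either, except the gut list, through Apoa4. Macrophage markers summed to 858 to 881 in Tet1 KO YAP Tg, 3261 to 3302 in YAP Tg and 734 to 891 in control livers. Cholangiocyte and progenitor markers summed to 449 to 466 in Tet1 KO YAP Tg, 1991 to 2018 in YAP Tg and 148 to 167 in control livers. None of the 16 measured macrophage markers and 1 of the 15 cholangiocyte markers was at 0 in Tet1 KO YAP Tg. These sums moved with YAP Tg, as most low genes did, and their part in the values was not tested. Cd14, a myeloid receptor gene among the low genes, averaged 10.8 ± 1.65 with decitabine, 1.5 ± 0.112 in Tet1 KO YAP Tg, 10.6 ± 0.627 in YAP Tg and 3.63 ± 0.24 in control livers.

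How the members differed between YAP Tg and control livers was tested over all 13730 genes that passed the filter, and all 131 members were among them. Of the 59 high genes, 37 were lower and 7 higher in YAP Tg, where 34.5% of all tested genes were lower and 36.1% higher. Of the 72 low genes, 48 were higher and 7 lower. The median log2 change was −0.92 for the high and 0.63 for the low genes, against 0.01 for all tested genes. Both groups had also served to choose the members, so nothing is read from these counts and medians, nor from the differences of single genes between these groups. High genes that were lower in YAP Tg included Fasn, Pklr, Apoa4 and Ugt2b1, with log2 changes of −2.03, −2.01, −3.92 and −3.04, while Serpina5, Bhmt, Cyp26a1 and Cyp3a59 were higher. When libraries of a group that hardly differed were averaged into 1, YAP Tg kept 1 value per gene and no replication. Nothing is therefore read from calls of that fit. Its median log2 changes were −0.99 for the high and 0.63 for the low genes.

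The decitabine libraries took no part in the rule. In them 49 of the 59 high genes were lower than in untreated Tet1 KO YAP Tg livers and 2 were higher, where 27.8% of 13934 tested genes were lower and 33% higher. Of the 72 low genes, 58 were higher and 2 lower. The untreated side of this comparison had also chosen the members, so nothing is read from these counts. Moreover, decitabine values were deposited in another unit than all other libraries, and treatment and processing cannot be told apart: Gapdh, for one, was deposited at 1.92, 2.86 and 2.33 TPM with decitabine, against 519 to 530 normalised reads in Tet1 KO YAP Tg. The 2 high genes that were higher with decitabine were Serpina3c and Cox7a2 (log2 0.63 ± 0.23, adjusted p = 0.029). The 2 low genes that were lower were Cyp2j9, a P450 enzyme (log2 −0.70 ± 0.17, adjusted p = 0.0034), and BC048546 (log2 −0.81 ± 0.28, adjusted p = 0.022). The most negative log2 differences among the high genes were those of Mup19, which had no read, Gm4956, C4a, Gm10653, Cyp4a12b and Cml5, between −4.85 and −9.04. The most positive among the low genes were those of Asns, Nipal1, Serpina7, Hao2, NAIP7 and Tcf24, between 2.98 and 3.95. With near-identical libraries averaged, untreated Tet1 KO YAP Tg kept 1 value per gene. The median log2 differences were then −1.96 for the high and 1.71 for the low genes.

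Decitabine livers were also set against the other 2 groups. Against YAP Tg livers, 32 of the 59 high genes were higher and 5 lower with decitabine, where 26.3% of all tested genes were higher and 19.5% lower. Of the 72 low genes, 8 were higher and 42 lower. With near-identical libraries averaged, 7 high genes were higher and 1 lower and 0 low genes were higher and 13 lower, where 1.31% of all tested genes were higher and 5.01% lower. Against control livers, 18 of the high genes were higher and 27 lower, where 36.7% of all tested genes were higher and 30.7% lower. Of the low genes, 32 were higher and 19 lower. With the same averaging, the medians against control livers were −0.52 for the high and 0.16 for the low genes. The median log2 differences of the high genes were −1.96 relative to untreated Tet1 KO YAP Tg, 0.79 relative to YAP Tg and −0.40 relative to control livers. Those of the low genes were 1.72, −0.88 and 0.18 against the same groups. The 3 comparisons share the decitabine libraries, and the groups set against them had all served to choose the members, so these too are descriptions. Bhmt was below all other groups with decitabine, while genes above all others included Serpina3c, Asns and Il1rn, the interleukin 1 receptor antagonist. Il1rn averaged 12 ± 2.6 with decitabine, 1.63 ± 0.304 in Tet1 KO YAP Tg, 5.87 ± 0.47 in YAP Tg and 3.46 ± 0.445 in control livers.

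**Figure D4:**
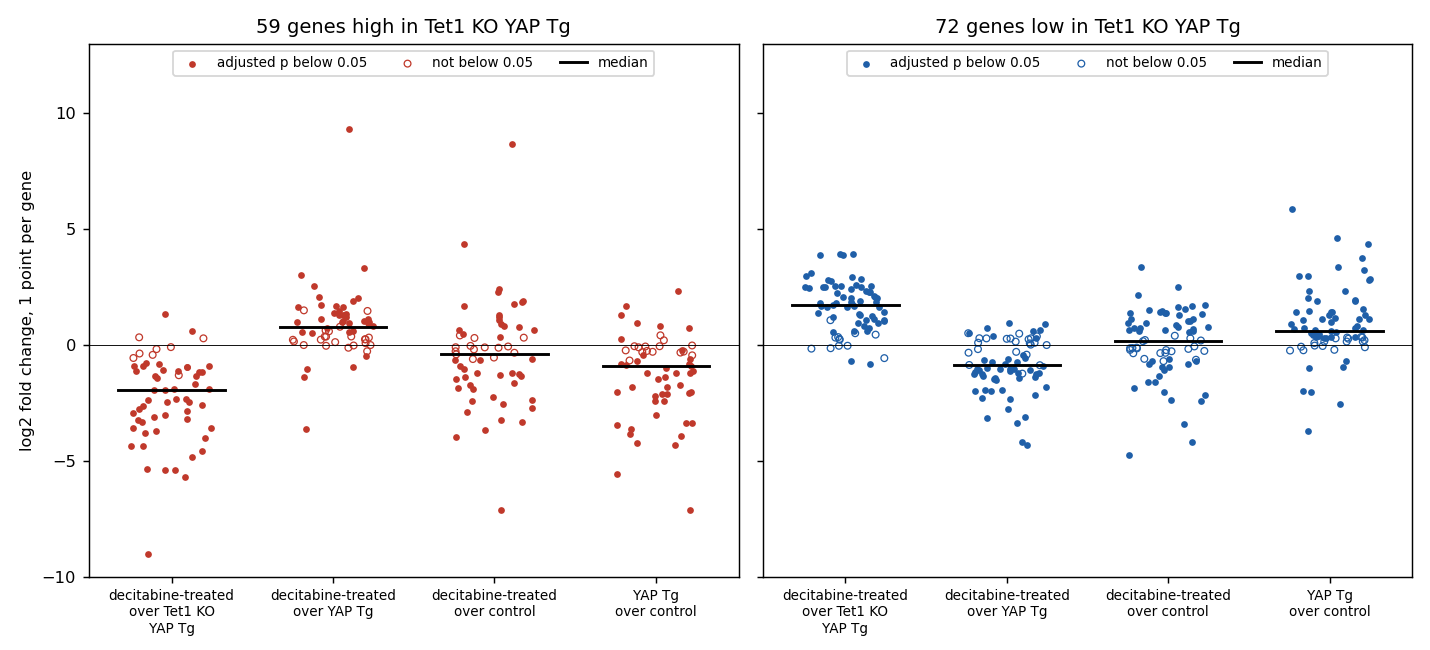
Each point is 1 member, by log2 fold change (y axis) in 4 comparisons, for the 59 high genes on the left and the 72 low genes on the right; filled points have an adjusted p below 0.05 in limma over all genes, open points do not, and bars are medians. The medians of the high genes lie at −1.96, 0.79, −0.40 and −0.92 and those of the low genes at 1.72, −0.88, 0.18 and 0.63, in the order drawn.

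Promoters were found in the RefSeq table for 48 of the 59 high and 49 of the 72 low genes, of which 43 and 46 began within 100 bases of the gene start in the deposited table. The median number of CG dinucleotides in the 300 bases was 7.5 for the high, 9 for the low and 7 for all promoters, with ranges of 0 to 42 among the high and 0 to 44 among the low genes. The STAT letters TTCNNNGAA stood in 5 of the high and 4 of the low windows, against 8.3% of all promoters, and the E-box letters CACGTG in 2 of the high and 7 of the low windows, against 7.15%. The 5 high windows with STAT letters were those of Moxd1, Serpina3g, Prodh, Slc46a3 and C1rb. These are matches of letters and not sites of binding.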

How the data were processed

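Liver RNA from mice was analysed in 12 libraries, 4 groups of 3; 24 of the 36 samples of the series (methylated DNA, chromatin and input libraries) were not analysed here. TopHat2, featureCounts and edgeR are named in the submitters' processing notes, without versions, with build mm10. For the untreated groups the authors deposited a scaled signal per gene, called normalised reads here: every value was a whole number of reads times a library constant (tolerance 0.02 reads). For the decitabine libraries the authors deposited TPM. Reads and gene lengths were recovered from the TPM for 17095 of 17105 genes, and 10 were left out. On simulated libraries 90.9% of genes came back exactly and 7.37% too small by a whole factor. The smallest gene length that fitted a gene's TPM values was taken. Decitabine reads of single genes may thus be too small, and the lengths were not checked against known transcripts. They were 2680 bases for C4a, 682 for Creld2, 571 for Cyp2a4 and 492 for Apcs. For Mir675, which spans 142577064 to 142577147, the length was 42. The reads were put on the deposited scale with edgeR 4.0.16 (TMM). The deposited tables also hold the authors' log2 fold changes, which were not used for any test. The strand of counting is not given in the sources used here.

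Differences were tested with limma 3.58.1 (R 4.3.3, trend) on log2(value + 0.5), for genes at 0.5 or more in at least 3 libraries, with Benjamini-Hochberg adjustment over all genes tested and a threshold of 0.05. A fit of 9 libraries served YAP Tg against control, and a fit of 12 the decitabine comparisons. Data simulated for YAP Tg against control alone, with the same spread in every group, returned 98% of 2-fold and 69% of 1.5-fold changes. There were 6 false calls among 13730 genes. The decitabine comparisons, whose treated libraries spread more widely, were not simulated. Members and gene lists were chosen with earlier results of these data known. Genes were named by size of ratio, level, list membership, nearness to the threshold and decitabine change; Apoa4, C1rb, Cd14, Cdkn1a, Mir675, Prodh, Rp1, Saa2 and Slc46a3 were added after their values were seen, as were further values of other members. Results for some genes are not reported here. An exact permutation test of 3 against 3 libraries cannot go below a two-sided p of 0.1.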

Additional observations from a re-analysis of the deposited data

How the results depend on the processing

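The number of high genes was 89 with a level of at least 1 in place of 5, 219 with a factor of 1.5 and 22 with a factor of 3, and the number of low genes 119, 176 and 28 under the same settings and 31 with a level of at least 20. Leaving out 1 library gave 53 to 64 high and 66 to 79 low genes. With near-identical libraries averaged, 30 low genes were higher in YAP Tg than in control livers. YAP Tg kept 1 value per gene in that fit, so nothing is read from this count, and other calls of that fit are not given. Under that averaging, decitabine-treated livers were also set against untreated Tet1 KO YAP Tg livers. The median log2 differences were −1.96 for the high and 1.71 for the low genes. Against YAP Tg livers they were 0.79 and −0.88. Against control livers 11 high genes were higher and 22 lower, and 21 low genes were higher and 13 lower. Of all tested genes, 23.8% were higher and 20.7% lower there. Fewer libraries entered those fits. High genes called higher with decitabine numbered 1 under median-of-ratios scaling, 8 with decitabine reads doubled and 1 to 4 with 1 library left out (1 without any one of the untreated Tet1 KO YAP Tg libraries, 4 without decitabine library 3). Low genes called lower numbered 0 with reads doubled and 1 to 3 with 1 library left out (1 without Tet1 KO YAP Tg library 2 or decitabine library 1).

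Deviations of same-numbered libraries from their group means correlated at 0.0104 to 0.449. Those of replicate 3 were the largest, at 0.266, 0.449 and 0.260. Libraries of different numbers were not compared, so whether replicate numbers pair the libraries was not tested. With the replicate number as a block, 39 high genes were lower and 8 higher in YAP Tg than in control livers. Of the low genes, 49 were higher and 7 lower, and of all 13730 tested genes 4933 were higher and 4720 lower. With decitabine, 49 high genes were lower and 2 higher than in untreated Tet1 KO YAP Tg livers. Of the low genes, 59 were higher and 2 lower, and of all 13934 tested genes 4516 were higher and 3822 lower. Groups that chose the members enter both comparisons, so nothing is read from these counts.

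Of 3860 values of named genes under the alternatives, 3640 kept their side of the threshold, 153 lost the call and 57 gained one. Another 10 changed sign where either fit gave a call. Changes of sign without a call in either fit are among the 3640. Doubling the decitabine reads, chosen after the data were seen because some recovered reads may be too small by a whole factor, shifts all genes alike: the median of all genes was then 0.998, with 76.1% higher and 9.44% lower. Member counts and signs follow that shift by construction and say nothing about single genes. The log2 change against untreated Tet1 KO YAP Tg was then 0.041 for Creld2, 0.20 for Cyp2j9, 0.91 for Hspa4l, 0.13 for Ntrk2, 0.63 for Selenbp2, 0.24 for Serpina3m and 0.96 for Wsb1. Without decitabine library 1, Cyp3a59 was at −0.46 and Fgf21 at −0.68 against YAP Tg, and without decitabine library 3, Cyp4a12a was at 0.56 against control. Over the left-out libraries Cyp3a59 reached 0.48 and Cyp4a12a −1.21. The cause of the changes in Cyp3a59, Fgf21 and Cyp4a12a was not tested.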

Other observations

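The authors' deposited table gives log2 fold changes that set decitabine-treated livers against those of untreated Tet1 KO YAP Tg mice and against those of YAP Tg mice. Among 8691 genes with levels above 5, the first differed from log2 of decitabine TPM over normalised reads by a nearly constant amount (SD 0.00865). Among 9151 such genes the second, YAP Tg over decitabine-treated livers, differed likewise from log2 of normalised reads over TPM (SD 0.00819). Those fold changes therefore set values per length beside values that are not.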
